A study of Mus musculus with 9 samples.

Results

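The 10 genes described here belong to the Notch pathway and were measured in mouse mammary tumour cells treated with a Wnt inhibitor: the 4 receptors Notch1, Notch2, Notch3 and Notch4, the 4 ligands Dll1, Dll4, Jag1 and Jag2, the glycosyltransferase Mfng and the coactivator Maml1. They were chosen by gene name on the arrays of the treated cells, where 12 probes carried 1 of the 10 names, out of 27573 genes with a name in the whole series. The series holds 9 dual-colour Agilent arrays: 5 of the Fzd8-CRD group and 4 of the control group. Fzd8-CRD is the soluble cysteine-rich domain of the receptor Frizzled 8, which binds Wnt proteins and keeps them from their receptors. The labels give the tumours as MMTV-Wnt-1 and MMTV-Her2. In both transgenic lines the viral MMTV promoter acts mainly in mammary epithelium, where it expresses the ligand Wnt-1 in one line and the growth factor receptor Her2 in the other. All groups were sorted fresh for cells without green fluorescent protein. Both tumour models are named for every array, so they could not be separated, and the labels state neither the age of the animals nor the dose or time of treatment. Their treatment text names the inhibitor for the controls too, so it remains unknown here what the controls received.

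Notch receptors are single-pass membrane proteins that are activated by ligands of the Delta-like and Jagged families on a neighbouring cell. Ligand binding lets ADAM proteases and gamma-secretase cut the receptor, and the freed intracellular domain enters the nucleus, where it joins the DNA-binding protein RBPJ and a Mastermind-like coactivator to switch on genes of the Hes and Hey families. Fringe enzymes such as Mfng add sugars to the extracellular part of the receptor and change its response to the 2 ligand families. Notch4 and Dll4 are best known from endothelial cells, where Dll4 restrains the sprouting of new vessels, while Notch1, Notch2, Notch3, Dll1, Jag1 and Jag2 are also used by mammary epithelium or by mural cells.

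Of the 10 genes, 9 had a promoter window in RefSeq (build GRCm38.p6), 250 bases before to 50 bases after a start site. The promoters of 3 genes that passed the expression test are printed 5′ to 3′ on the gene's strand, since they differ in the letters they hold. Capitals mark matches, on either strand, to 5 short motifs: TGGGAA (the core bound by RBPJ), CCGGAA and AGGAAG (ETS factors), ATTGTT (SOX factors) and CTTTGA (TCF/LEF factors, the nuclear partners of Wnt signalling). The first is that of Notch4 (chr17:34564045-34564344, plus strand), the second that of Dll4 (chr2:119325534-119325833, plus strand) and the third that of Maml1 (chr11:50292287-50292586, minus strand).
Notch4: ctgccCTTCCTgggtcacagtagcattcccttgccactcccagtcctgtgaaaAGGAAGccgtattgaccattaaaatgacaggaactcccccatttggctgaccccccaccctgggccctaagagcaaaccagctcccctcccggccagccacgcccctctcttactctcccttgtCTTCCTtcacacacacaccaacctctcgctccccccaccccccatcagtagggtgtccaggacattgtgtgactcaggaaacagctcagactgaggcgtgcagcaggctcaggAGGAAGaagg
Dll4: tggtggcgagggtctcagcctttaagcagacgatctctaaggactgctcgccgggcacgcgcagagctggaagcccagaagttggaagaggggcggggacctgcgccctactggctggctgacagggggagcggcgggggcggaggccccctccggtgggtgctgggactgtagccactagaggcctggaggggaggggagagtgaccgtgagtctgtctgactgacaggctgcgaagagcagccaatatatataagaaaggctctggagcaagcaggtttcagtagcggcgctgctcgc
Maml1: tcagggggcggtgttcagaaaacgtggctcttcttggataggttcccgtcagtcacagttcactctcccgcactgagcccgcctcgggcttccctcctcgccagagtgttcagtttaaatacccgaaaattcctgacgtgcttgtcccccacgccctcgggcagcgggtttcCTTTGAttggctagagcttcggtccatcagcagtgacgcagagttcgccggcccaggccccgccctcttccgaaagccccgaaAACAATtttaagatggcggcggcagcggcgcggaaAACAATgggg
The Notch4 window held 4 matches to AGGAAG, at -245, -197, -73 and 40 bases from the start site (which is counted as 0), 2 of them on the opposite strand as CTTCCT. The motif was found in 35.4% of the 32851 RefSeq promoters of the same length, and 0.432% held at least 4 matches. The Dll4 window held none of the 5 motifs. The Maml1 window held 2 matches to ATTGTT, read as AACAAT at 5 and 40 bases from the start site, and 1 CTTTGA at -78. That window lies inside the gene's RefSeq span (chr11:50255634-50293131), so its start site is not the outermost end of the gene. ATTGTT was present in 10.7% of all promoters and CTTTGA in 16%. Among the other members, the Jag1 window held 1 CTTTGA and 1 of the 2 Dll1 windows held 1 AGGAAG, while those of Notch1, Notch2, Notch3 and Jag2 held no match. The Jag2 window and the Dll1 window with the match also lie inside the RefSeq spans of their genes. TGGGAA and CCGGAA, present in 25.6% and 14.9% of all promoters, were found in none of the members' windows. A match is a description of the letters and says nothing about binding in these cells.

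Before the results, 3 properties of the arrays bear on every value. The 4 control arrays shared 1 slide and 1 scan day, and the Fzd8-CRD group was spread over 4 further slides, scanned 367 or 378 days later, so treatment and slide cannot be told apart. Control replicate 2 stood apart from the rest, with a correlation over all genes of 0.618 to 0.737 with the other 8 arrays. Fzd8-CRD replicates 1 and 2 and control replicates 3 and 4 were the closest pairs, at 0.976 and 0.979. The share of probes well above background in Cy5 was 52.5% to 60.0% on the Fzd8-CRD arrays and 63.8% to 70.8% on the control arrays. The defining epithelial markers of the labelled tumour cells gave positive ratios in both groups. Epcam had a mean log2 ratio of 3.38 ± 0.50 in Fzd8-CRD cells and 3.64 ± 0.23 in control cells (SD, n = 5 and 4), and Krt8 of 3.00 ± 0.65 and 3.66 ± 0.56 in the same order. Endothelial markers were measured too, and Cdh5, the adhesion protein of endothelial junctions, was above background on every array. Others were dimmer, with Pecam1 and Tek above background on 2 of 5 Fzd8-CRD arrays, Tie1 on 3 and Sox17 on 4.

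All values that follow are log2 ratios of Cy5, the tumour cells, over Cy3, the reference RNA, unless stated otherwise. Differences are Fzd8-CRD minus control, with the standard error (SE) of limma's fit and a p adjusted by Benjamini-Hochberg over all 18267 genes tested. A ratio is relative to a reference whose content differs from gene to gene, so levels are compared between groups and never between genes. All 10 members passed the filter on dim probes. At an adjusted p below 0.05, 3 members fell (Notch4, Dll4 and Mfng), where 7.75% of all genes fell, and 1 rose (Maml1), where 6.59% of all genes rose. In either direction that makes 4 of 10, against 14.3% of all genes. The 2 groups of arrays did not overlap for 5 members, the same 4 and Dll1, against 19.6% of all genes. The median difference over the 10 members was 0.0035, against -0.072 over all genes tested.

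**Figure D1:**
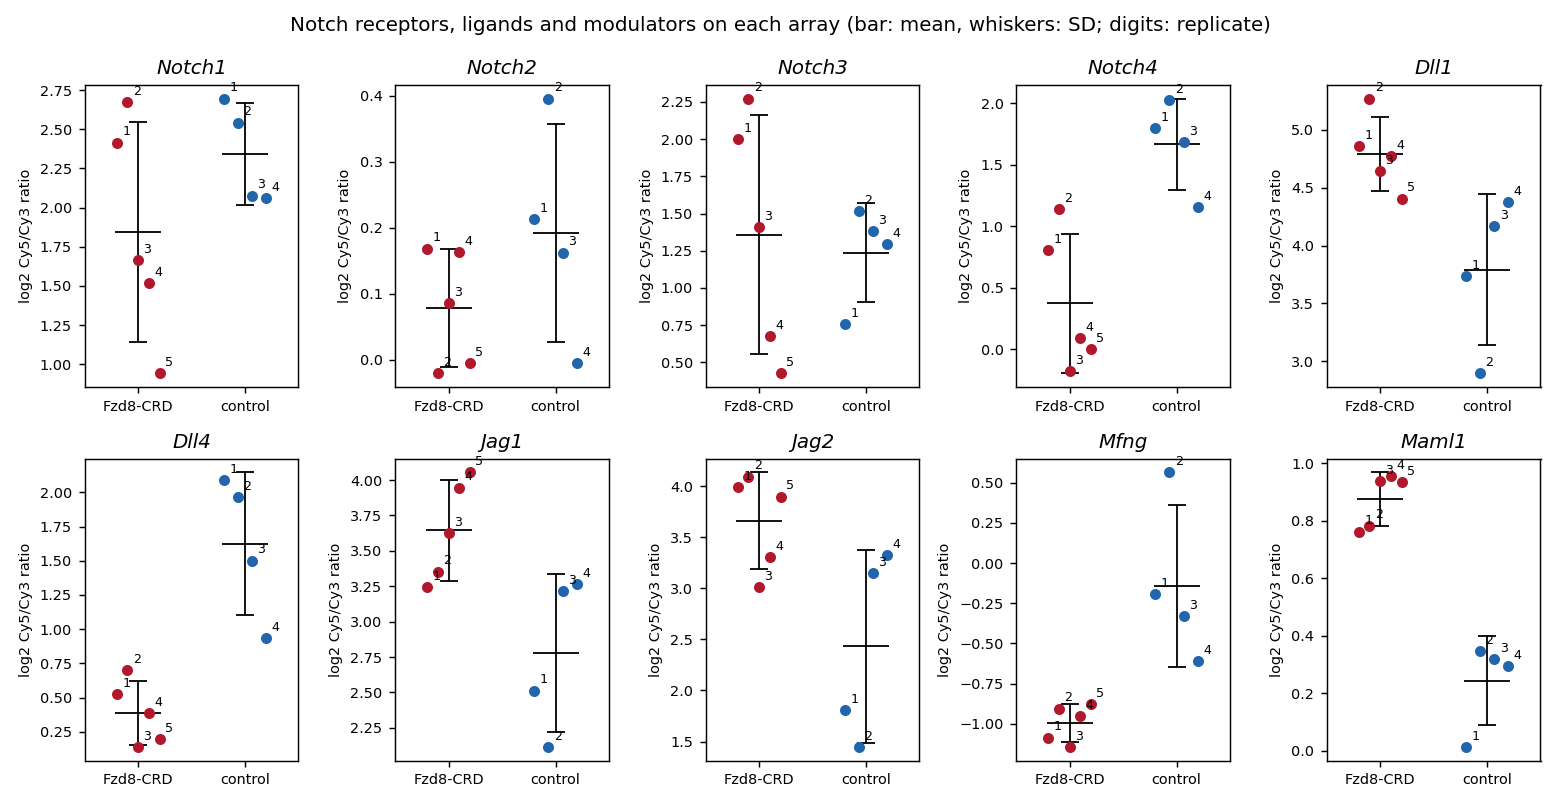
Log2 Cy5/Cy3 ratio of each of the 10 Notch genes (vertical axes, each with its own scale) on the 5 Fzd8-CRD arrays (red) and the 4 control arrays (blue). Bars are means, whiskers SD and digits replicate numbers. The groups do not overlap for Notch4, Dll1, Dll4, Mfng and Maml1.

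Among the receptors, Notch4 fell and the other 3 did not pass the test. The Notch4 ratio was 0.80, 1.14, -0.18, 0.094 and 0.0049 in Fzd8-CRD replicates 1 to 5, against 1.80, 2.03, 1.69 and 1.15 in control replicates 1 to 4. Every Fzd8-CRD array lay below every control array, although Fzd8-CRD replicate 2 came within a small distance of control replicate 4. Means were 0.37 ± 0.57 in Fzd8-CRD cells and 1.67 ± 0.37 in control cells (SD, n = 5 and 4), a difference of -1.29 (SE 0.30, limma adjusted p = 0.0208), which is 2.45-fold lower. The scanned Cy5 intensity of the probe was 104 to 228 units on the Fzd8-CRD arrays and 347 to 560 on the control arrays, above background on all 9. Without control replicate 3 the adjusted p was 0.0567 with a difference of -1.29, and without control replicate 2 the difference was -1.17 (adjusted p = 0.0386). In these mixed cells, fewer cells of a type and less RNA per cell cannot be told apart.

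Notch1, a receptor of luminal progenitors in the mammary gland, had ratios of 2.41, 2.67, 1.67, 1.52 and 0.94 in Fzd8-CRD replicates 1 to 5, against 2.69, 2.54, 2.08 and 2.06 in control replicates 1 to 4. The Fzd8-CRD arrays spread far more widely than the controls and overlapped them. The difference was -0.50 (SE 0.34, limma adjusted p = 0.329). The probe is spotted 10 times on each array, and the SD over its spots, which share 1 labelled sample, was 0.020 to 0.098. A second Notch1 probe, which abuts the first (chr2:26281261-26281319 and chr2:26281319-26281378 in mm8, the build of the array annotation), differed by -0.36 (SE 0.38, adjusted p over all probes 0.533).

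Notch3, known as the receptor of vascular smooth muscle and pericytes, ranged from 0.43 to 2.27 on the Fzd8-CRD arrays, which covered the whole range of the control arrays, 0.76 to 1.52. Its 5 Fzd8-CRD values were 2.0, 2.27, 1.41, 0.68 and 0.43 for replicates 1 to 5, and its 4 control values were 0.76, 1.52, 1.38 and 1.29. Replicates 1 and 2 of the Fzd8-CRD group were the highest arrays, as they were within that group for Notch1 and Notch4. The difference was 0.12 (SE 0.38, limma adjusted p = 0.851), and its sign depended on single arrays. Notch2, a receptor used in many tissues, was close to the limit of detection, with a Cy5 signal that cleared background on 2 of 5 Fzd8-CRD arrays but on 4 of 4 control arrays. Its ratios were 0.17, -0.021, 0.086, 0.16 and -0.0049 in Fzd8-CRD cells, against 0.21, 0.40, 0.16 and -0.0058 in control cells, a difference of -0.11 (SE 0.11, limma adjusted p = 0.512). Another 2 probes that only the annotation of the control arrays names Notch2, and that lie at higher coordinates of the same chromosome, were above background on all 9 arrays and differed by 0.17 (SE 0.21) and 0.045 (SE 0.15), with adjusted p over all probes of 0.600 and 0.865. Over all 26833 probes kept, 14.6% passed.

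Among the ligands, Dll4 fell, while Dll1, Jag1 and Jag2 had higher means in Fzd8-CRD cells that missed the threshold. The Dll4 ratio was 0.53, 0.70, 0.14, 0.39 and 0.20 in Fzd8-CRD replicates 1 to 5, against 2.09, 1.97, 1.5 and 0.94 in control replicates 1 to 4. The groups did not overlap, and the Fzd8-CRD arrays lay close together. Means were 0.39 ± 0.23 in Fzd8-CRD cells and 1.62 ± 0.52 in control cells (SD, n = 5 and 4), a difference of -1.23 (SE 0.24, limma adjusted p = 0.0119), or 2.35-fold lower. The probe is dim, with scanned Cy5 intensities of 88.4 to 114 in Fzd8-CRD cells and 179 to 310 in control cells. The scanner software's log ratio, which has no such offset as was added here in background correction, gave a difference of -1.24, and an offset of 16 in place of 50 gave -1.59. Without control replicate 2 the difference was -1.12 (adjusted p = 0.0201). Dll4 passed the threshold in all 22 alternative settings, with adjusted p from 0.00195 to 0.0459 and differences from -1.59 to -0.72. These settings are not independent. Quantile normalization, the filters and probe averaging left its difference at -1.23, and the series table repeats the scanner's ratio.

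Dll1, a ligand known from mammary stem cells, gave 4.86, 5.27, 4.64, 4.77 and 4.41 in Fzd8-CRD replicates 1 to 5, against 3.73, 2.89, 4.16 and 4.38 in control replicates 1 to 4. All 5 Fzd8-CRD arrays lay above all 4 controls, the closest being Fzd8-CRD replicate 5 at 4.41 and control replicate 4 at 4.38. The difference of 1.00 (SE 0.30) had an adjusted p of 0.0512 in limma's fit over genes and 0.0495 over all probes, so it sat on the threshold. Its probe is spotted 10 times, with an SD over spots of 0.060 to 0.135 per array. Without control replicate 2 the difference was 0.70 (SE 0.21, adjusted p = 0.0554).

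Jag1, a ligand that both epithelium and endothelium can present, had ratios of 3.24, 3.35, 3.62, 3.95 and 4.05 in Fzd8-CRD replicates 1 to 5, against 2.51, 2.11, 3.21 and 3.26 in control replicates 1 to 4. Fzd8-CRD replicate 1 lay just below control replicate 4, so the groups overlapped by 1 array. The difference was 0.87 (SE 0.27, limma adjusted p = 0.0635). A second and much dimmer Jag1 probe (scanned Cy5 means of 107 in Fzd8-CRD cells and 100.4 in control cells) did not share it, with a difference of -0.00039 (SE 0.15). The probes lie at chr2:136773138-136773197 and chr2:136774647-136774706 in mm8. Jag2, the other Jagged ligand, had ratios of 3.99, 4.09, 3.01, 3.30 and 3.90 in Fzd8-CRD cells, against 1.80, 1.45, 3.15 and 3.32 in control cells. The control group split, with replicates 1 and 2 low and replicates 3 and 4 within the Fzd8-CRD range. Its difference was 1.23 (SE 0.42, limma adjusted p = 0.0790). Without control replicate 2 the differences were 0.65 for Jag1 (adjusted p = 0.102) and 0.90 for Jag2 (adjusted p = 0.139).

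Of the modulators, Mfng fell and Maml1 rose. The Mfng ratio was -1.09, -0.91, -1.15, -0.95 and -0.88 in Fzd8-CRD replicates 1 to 5, against -0.19, 0.56, -0.33 and -0.61 in control replicates 1 to 4. The Fzd8-CRD arrays were tightly grouped below all controls, and control replicate 2 was the highest. The difference was -0.85 (SE 0.21, limma adjusted p = 0.0296). In the Fzd8-CRD group 4 of 5 arrays had a signal above background, and the scanner software's own log ratio, with no offset, gave a difference of -2.11 (adjusted p = 0.00821). In 7 of 9 fits that each left out 1 array the adjusted p lay just above the threshold, between 0.0509 and 0.0685. Without control replicate 2 the difference was -0.61 (adjusted p = 0.0161).

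Maml1, a Mastermind-like coactivator of the Notch intracellular domain, had ratios of 0.76, 0.78, 0.94, 0.95 and 0.93 in Fzd8-CRD replicates 1 to 5, against 0.012, 0.35, 0.32 and 0.30 in control replicates 1 to 4. Means were 0.87 ± 0.094 in Fzd8-CRD cells and 0.24 ± 0.15 in control cells (SD, n = 5 and 4), and the gap between the groups was wider than either group's range. The difference was 0.63 (SE 0.11, limma adjusted p = 0.00947), or 1.55-fold higher. Without control replicate 2 it was 0.67 (adjusted p = 0.00897). With median centring in place of loess the difference was 0.79 but its adjusted p was 0.133.

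Each dye was also tested on its own, since a ratio can move through the reference. In Cy5 alone 7 members passed, 4 higher (Dll1, Jag1, Jag2 and Maml1) and 3 lower (Notch4, Dll4 and Mfng), where 18.9% of all genes passed. In Cy3 alone 6 members passed, 4 higher (Notch4, Dll1, Jag1 and Jag2) and 2 lower (Notch1 and Notch3), where 59.0% of all genes passed, although Cy3 holds a reference and not the tumour cells. The Cy5 differences were 2.0 for Dll1, 1.43 for Jag1 and 2.04 for Jag2, with Cy3 differences of 0.49, 0.31 and 0.45 in the same order. For these ligands both dyes were higher on the Fzd8-CRD arrays. The single dyes were quantile normalized and the ratio by loess, so the dye differences do not add up to the ratio difference. Dll4 differed by -0.72 in Cy5 (adjusted p = 0.0459) and by -0.038 in Cy3 (adjusted p = 0.491). Mfng differed by -0.96 in Cy5 and -0.0087 in Cy3, and Maml1 by 0.90 and 0.11. Notch4 differed by -0.82 in Cy5 (adjusted p = 0.0460) and by 0.23 in Cy3 (adjusted p = 0.00129).

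**Figure D2:**
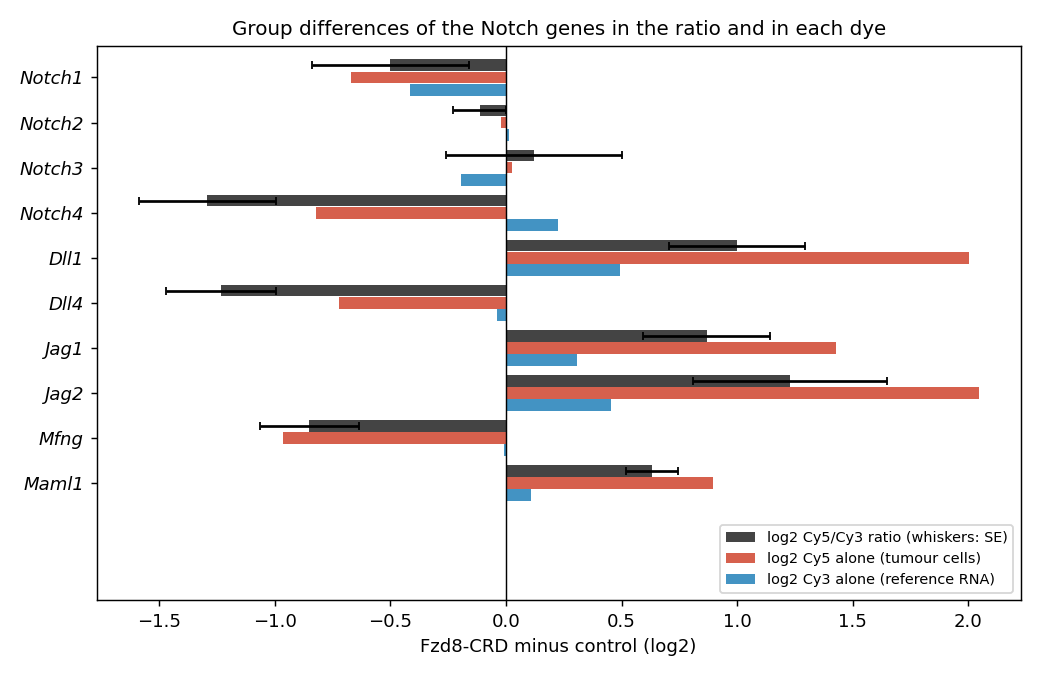
Difference between Fzd8-CRD and control arrays (log2, horizontal axis) for each Notch gene in the ratio (grey, whiskers SE), in Cy5 alone (red) and in Cy3 alone (blue). Dll4, Mfng and Maml1 differ mostly in Cy5, while Dll1, Jag1 and Jag2 are higher in both dyes and Notch1 is lower in both.

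The vascular members were then set against the other receptors and ligands on each array. The mean ratio of Notch4 and Dll4 minus the mean of Notch1, Notch2, Notch3, Dll1, Jag1 and Jag2 was -2.18 ± 0.15 on the Fzd8-CRD arrays and -0.48 ± 0.70 on the control arrays (SD, n = 5 and 4). It ran from -2.43 to -2.02 in Fzd8-CRD cells and from -1.34 to 0.18 in control cells, with no overlap. Since each gene has its own reference level, only the change between groups can be read from this, and the pairing of genes was chosen with their values known, so no test is given. The vascular mean differed by -1.26. The mean of the other 6 differed by 0.43, with overlapping groups (2.29 to 2.94 in Fzd8-CRD cells and 1.82 to 2.39 in control cells), and their median by 0.29. None of these 6 genes passed, and Notch1 and Notch2 had lower means in Fzd8-CRD cells, while Dll1, Jag1 and Jag2 had higher ones. Of 3 pairs of genes set against each other, Dll4 minus Dll1, the 2 Delta-like ligands, was -4.40 ± 0.14 on the Fzd8-CRD arrays and -2.17 ± 1.11 on the control arrays. Dll4 minus Jag1, the pair of ligands with opposed roles in vessel sprouting, was -3.25 ± 0.54 in Fzd8-CRD cells and -1.15 ± 1.04 in control cells. Notch4 minus Notch1 was -1.47 ± 0.34 and -0.68 ± 0.26 in the same order. In each of these contrasts the Fzd8-CRD arrays all lay below the control arrays. For Dll4 minus Dll1 this had to be so, since each gene alone separated the groups, in opposite directions. In the other contrasts the first term alone separated the groups too, so they are not results independent of it. The vascular mean was at most 0.92 on the Fzd8-CRD arrays and at least 1.05 on the control arrays. For Notch4 minus Notch1 the gap was narrow, with the highest Fzd8-CRD array at -0.94 and the lowest control array at -0.91. For both Dll4 contrasts and the 8-gene contrast, control replicate 4 lay closest to the Fzd8-CRD arrays and control replicate 2 farthest from them.

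**Figure D3:**
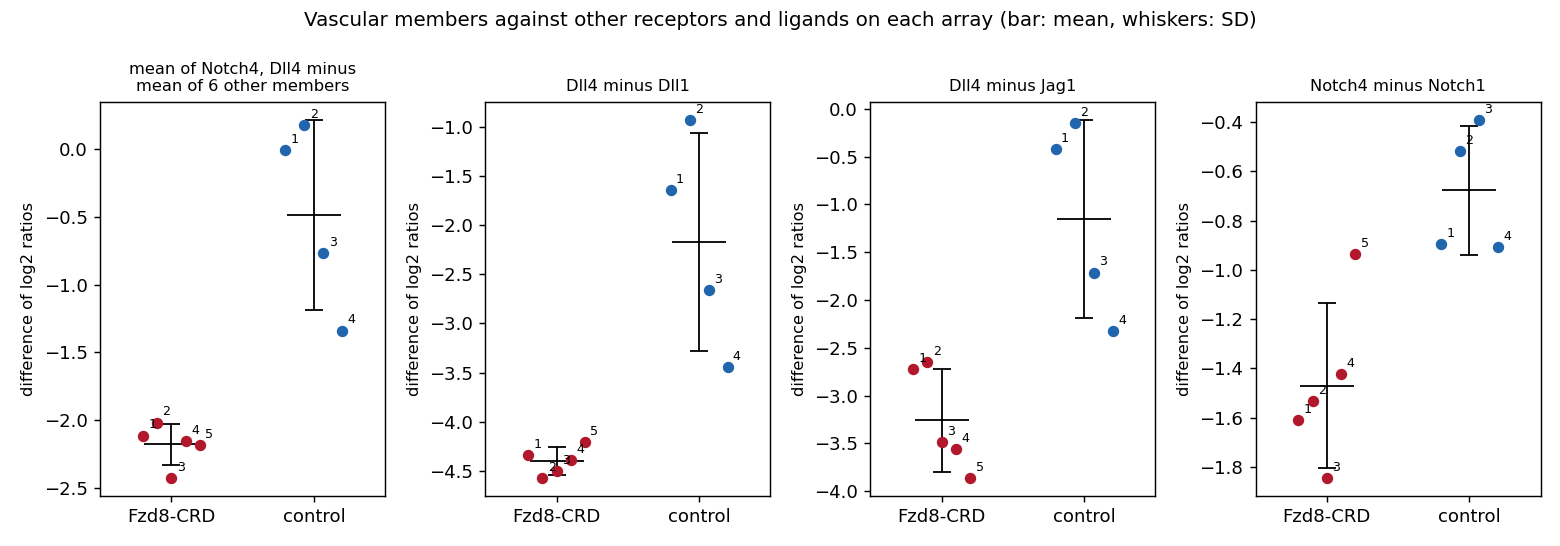
Differences between log2 ratios of Notch genes on each array (vertical axes) for Fzd8-CRD (red) and control (blue) arrays, with means as bars, SD as whiskers and replicate numbers as digits. All 5 Fzd8-CRD arrays lie below all 4 control arrays in each panel, and the control arrays are spread more widely in the first 3.

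Markers of other cell types moved between the groups as well. Of 18 endothelial markers 17 fell and 1, the TGF-beta co-receptor Eng, did not pass. Their median difference was -1.91, and the differences ran from -3.11 to -0.13, a range that holds those of Notch4 and Dll4. Cdh5 differed by -2.55, the VEGF receptor Kdr by -2.11 and Emcn by -3.04. Pecam1, above background on 2 of 5 Fzd8-CRD arrays, differed by -1.23. The endothelial level of an array, the median over the 18 markers of the ratio minus the marker's mean, was -0.44, 0.17, -1.37, -1.01 and -1.56 in Fzd8-CRD replicates 1 to 5, against 0.77, 1.47, 1.06 and 0.91 in control replicates 1 to 4. Within the Fzd8-CRD group replicates 2 and 1 were highest, as for Notch4 and Dll4. Over the 9 arrays the endothelial level correlated at 0.964 with Notch4 and 0.884 with Dll4, and for deviations from the group means at 0.882 and 0.491. Without control replicate 2 the correlations of deviations were 0.869 and 0.420. The values over all 9 arrays include the difference between the groups. These are descriptions over arrays that share their normalization. The part of the endothelial markers in the Notch4 and Dll4 results was not tested.

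**Figure D4:**
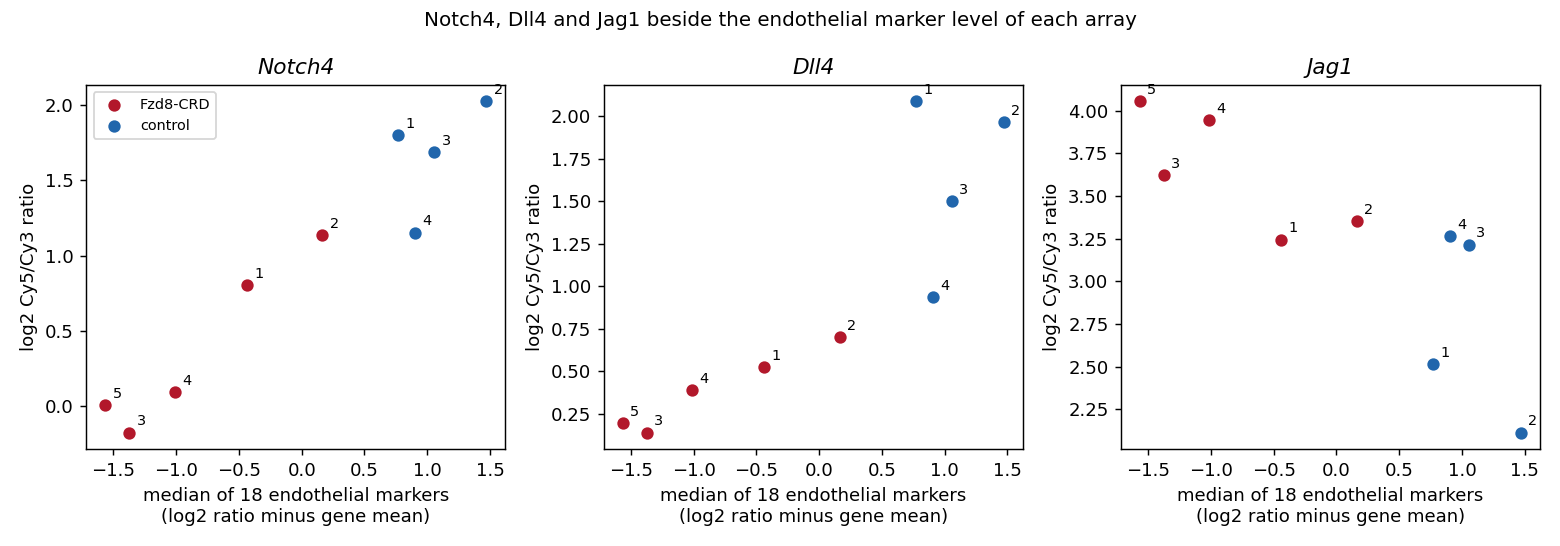
Log2 ratio of Notch4, Dll4 and Jag1 (vertical axes) against the endothelial marker level of the same array (horizontal axis, median over 18 markers of the log2 ratio minus the gene's mean) for Fzd8-CRD (red) and control (blue) arrays. Notch4 and Dll4 are higher, and Jag1 mostly lower, on the control arrays, which have the highest endothelial levels. Among the control arrays, Dll4 is highest on replicate 1, which has the lowest endothelial level of that group.

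Jag1 ran the other way, with correlations with the endothelial level of -0.834 over the 9 arrays and -0.586 within groups. Notch1 and Notch3, which did not pass the test between groups, followed the endothelial level within the groups at 0.828 and 0.847. Dll1 and Jag2 correlated with it at -0.596 and -0.561 over all arrays and at 0.217 and 0.153 within groups, and without control replicate 2 at 0.823 and 0.458 within groups. Maml1, Mfng and Notch2 correlated with it at -0.873, 0.803 and 0.466 over all arrays and at -0.259, 0.308 and 0.170 within groups. Of 8 pericyte markers 3 fell (Rgs5, Kcnj8 and Abcc9) and the others did not pass, Pdgfrb at -1.13 and Cspg4 at -0.14, with a median of -0.64. Of 12 epithelial markers 1 rose, the basal keratin Krt5 by 0.80, and 1 fell, the junction protein Cldn4, with a median of -0.13. In single dyes Krt5 differed by 0.065 in Cy5 and by -0.80 in Cy3, so its ratio moved mostly through the reference. Cldn4 differed by -2.04 in Cy5 and by -1.19 in Cy3. Epcam, Krt8 and Krt14 differed by -0.26, -0.66 and 0.79 without passing. In all, 6 epithelial markers had an unadjusted p below 0.05, Krt18 at -1.15 and Cdh1 at -0.59 among them. Such p values were common over the whole array. By unadjusted p in limma's fit, the fibroblast marker Col1a2 (0.0484) ranked 5775 among the 18267 genes tested. At least 5775 genes thus lay below 0.05, which bears on each unadjusted count given here. Of 3 erythrocyte markers tested 3 fell, with a median of -4.31. Of 7 macrophage markers 1 fell (Mrc1) and 5 had an unadjusted p below 0.05, with a median of -0.70. Of 6 fibroblast markers, Col1a1 at -1.72 and Dcn at 0.035 among them, 0 passed in limma's fit and 2 had an unadjusted p below 0.05, with a median of -1.34.

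Of 9 lymphocyte markers 0 passed in limma's fit and 1, Cd3e, had an unadjusted p below 0.05, with a median difference of -0.64. The lymphocyte level of control replicate 2 was 1.94, while it was -0.34 to -0.070 on the Fzd8-CRD arrays and -0.19 to -0.053 on the other 3 control arrays. Control replicate 2 also had the highest erythrocyte (4.85), fibroblast (2.40), macrophage (1.24), pericyte (0.90) and endothelial (1.47) levels. Cd3e, part of the T cell receptor complex, was -0.18 to 0.047 on the Fzd8-CRD arrays, 2.75 on control replicate 2 and 0.33 to 0.40 on the other controls. Control replicate 2 was also the array with the highest Mfng ratio, and Mfng correlated with Cd3e at 0.908 over the 9 arrays and 0.905 for deviations from the group means. Without that array the values were 0.878 and 0.066, so the correlation of deviations rested on it. Mfng also correlated with the endothelial level, at 0.803 over the 9 arrays. The part of lymphocyte RNA, or of RNA from the other cell types, in the Mfng result was not tested. Without control replicate 2 Mfng differed by -0.61.

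The genes most like each member were found by correlation of the log2 ratio over the 9 arrays, as a description with no test. Those closest to Notch4 were Mmrn2 (0.976), Vwf (0.973) and Cdh5 (0.972), all 3 of them endothelial markers of the list above. Those closest to Dll4 were A930005C09Rik (0.981), Cox6c (0.978) and Shmt2 (0.975). Closest to Mfng were LOC638575 (0.992), Nbas (0.991) and Tymp (0.987), and closest to Maml1 were Rab11fip3 (0.985), Tnfrsf1a (0.983) and Sec24d (0.976). Among the ligands, Syvn1, Numa1 and Zfyve27 lay closest to Dll1 (0.989 to 0.975), Slc20a2, Phlda3 and Rnf41 to Jag1 (0.988 to 0.978), and Aox1, Tead1 and Rabep2 to Jag2 (0.987 to 0.981). Among the receptors, Arrdc1, Syt1 and Tst lay closest to Notch1 (0.983 to 0.970), BB161836, Gfus and Stxbp5 to Notch2 (0.948 to 0.918), and Naxd, Rp9 and Ints9 to Notch3 (0.982 to 0.964). With 9 arrays and 18267 genes, the highest correlations are picked from many. Among the members themselves, Notch4 and Dll4 correlated at 0.938, and at 0.786 for deviations from the group means. Dll1 and Jag2 did so at 0.899 and 0.793, Notch1 and Notch4 at 0.791 and 0.844, and Dll4 and Jag1 at -0.899 and -0.784.

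The rest of the pathway was read from a list of 48 genes, of which 46 were tested. Of these 5 rose, 2 fell and 39 did not pass, with a median difference of -0.024, against -0.072 over all genes. The count of 7 in 46 is close to the 14.3% of all genes that passed. Mib1, Maml2, Dtx3 and Mib2 were among the genes that rose, and those that fell were Egfl7 and Dtx4. Maml2, a coactivator of the same family as Maml1, differed by 0.92 (SE 0.17, adjusted p = 0.0108). The signal of the third family member, Maml3, was on every Fzd8-CRD array not well above background. Its ratio differed by -0.11 (SE 0.11, limma adjusted p = 0.484). Of 5 ubiquitin ligases that help ligands to signal, Mib1 rose by 0.97 (adjusted p = 0.0311) and Mib2 by 0.68 (adjusted p = 0.0431). Without control replicate 2, 9 genes of the list passed and Mib2 did not (adjusted p = 0.0603). Mib2 passed in 1 of the 9 fits that left out 1 array, and Mib1 and Dtx3 in 4 of 9 each.

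Egfl7, an endothelial secreted protein that binds Notch receptors and ligands, gave 0.66, 1.12, -0.68, -0.21 and -0.41 in Fzd8-CRD replicates 1 to 5, against 1.76, 1.85, 1.77 and 1.81 in control replicates 1 to 4. It fell by 1.70 (SE 0.34, limma adjusted p = 0.0137), and replicates 2 and 1 were again the highest Fzd8-CRD arrays. Dtx4 and Dtx3, E3 ligases of the Deltex family, moved apart, Dtx4 by -0.75 (adjusted p = 0.0122) and Dtx3 by 0.79 (adjusted p = 0.0280). Of 8 ADAM protease and gamma-secretase genes, and of 4 glycosylation genes, 0 passed in limma's fit, and 0 had an unadjusted p below 0.05. At least 5775 of the 18267 genes tested lay below that unadjusted cut. The fringe enzyme Lfng, which acts on the same sugars as Mfng, differed by 0.10 (SE 0.28) and the DNA-binding partner Rbpj by 0.27 (SE 0.16).

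**Figure D5:**
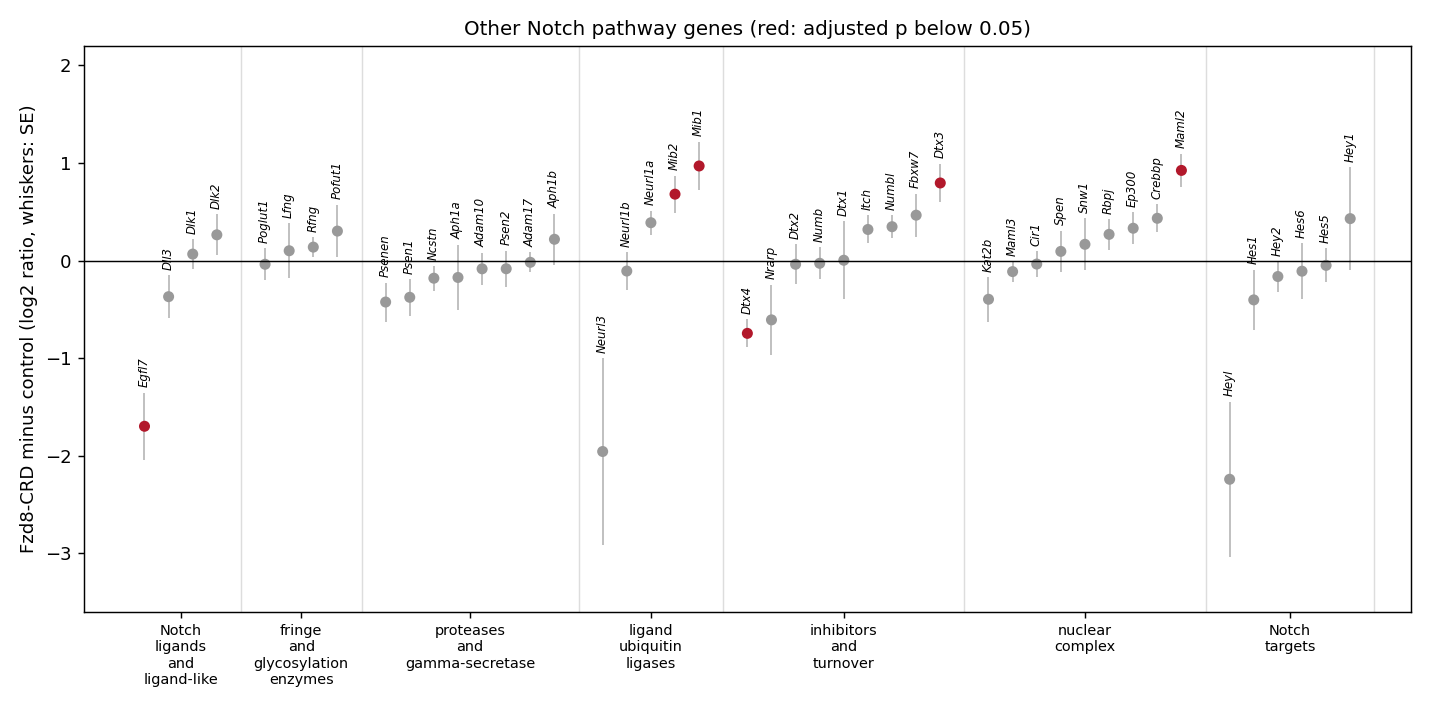
Difference in log2 ratio, Fzd8-CRD minus control (vertical axis, whiskers SE), of 45 further Notch pathway genes grouped by role (horizontal axis). The 6 genes in red passed an adjusted p of 0.05, and none of the 6 target genes did.

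Of the 6 Hes and Hey genes tested, the usual transcriptional targets of Notch, 0 passed at an adjusted p below 0.05, and 1, Heyl, had an unadjusted p below 0.05 in limma's fit (0.0190). Heyl gave 0.83, 0.96, 0.62, 0.26 and 0.29 in Fzd8-CRD replicates 1 to 5, against 0.99, 5.81, 2.35 and 2.19 in control replicates 1 to 4. The groups did not overlap, but control replicate 2 lay far above the other 3 controls. The difference was -2.24 (SE 0.80, adjusted p = 0.0876), and without control replicate 2 it was -1.25 (SE 0.32, adjusted p = 0.0304). With the scanner software's log ratio it was -0.36. Hey1 differed by 0.43 (SE 0.53), with the 5 Fzd8-CRD arrays at 4.99, 4.87, 3.28, 2.44 and 2.72 and the 4 controls between 3.18 and 3.30. The Fzd8-CRD arrays thus lay on both sides of the controls, replicates 1 and 2 above them. Hes1 differed by -0.40 (SE 0.31), Hes5 by -0.050 (SE 0.18) and Hey2 by -0.16 (SE 0.16). Nrarp, a target that feeds back to limit Notch signalling, differed by -0.61 (SE 0.36, adjusted p = 0.270). Among the other genes that did not pass, the largest differences were those of Neurl3, a ligase gene with a difference of -1.96 and control replicate 2 at 6.28, against 1.06 to 1.51 on the other 3 control arrays, and of Fbxw7, which marks the Notch intracellular domain for breakdown, at 0.46.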

How the data were processed

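Per the file headers, the scanned intensity of each spot (foreground mean and local background median, for both dyes) comes from Agilent Feature Extraction, version 9.5.3.1, which also set flags for outliers and for signal above background. Its own log10 ratio, red over green, stands in the same deposited files. The series' value table, also deposited, gives a linear ratio, and the log2 of it correlated at 1 with the scanner's on every array. Per the labels, Cy5 held the tumour cells and Cy3 a reference, which the labels describe in more than 1 way.

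Background was corrected by normexp (offset 50) in limma 3.58.1 (R 4.3.3, version 1.17.8 of data.table), ratios were normalized by loess with control spots unweighted, 1229 outlier spots were left out and 0 were saturated. Spots were averaged per probe (41174 probes), 26833 probes were kept whose Cy5 signal was well above background on 4 or more arrays, and each gene was represented by its brightest probe. Probes were named through RefSeq accessions (23374), current symbols (6733) or synonyms (2919), and 8148 kept the file's name. Groups came from the treatment label, replicates were numbered in accession order, and the groups were compared with limma's moderated test, with Benjamini-Hochberg adjustment over 18267 genes and a threshold of 0.05. The number of arrays limits the precision. The comparison was tested on simulated data. Figures were drawn with matplotlib 3.10.9.

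The members, gene lists and motifs were chosen with earlier results of these data known. Named genes are the members, pathway genes past the threshold or with the 4 largest differences otherwise, 8 pathway genes always given (Hes1, Hes5, Hey1, Hey2, Heyl, Nrarp, Rbpj, Lfng), the 3 genes most correlated with each member, and fixed markers. Eng, Abcc9, Cldn4, Krt18, Cdh1, Mrc1 and Maml3 lie outside it and were picked once their values had been seen, and 1 pathway gene is not reported here. The settings varied were background correction, the scanner's ratio, the series table, normalization, Cy5 alone, filters, probe averaging, array weights, slide and leaving out each array.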

Additional observations from a re-analysis of the deposited data

Results flagged for a closer look

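Maml1 on control replicate 1 had a log2 ratio of 0.012, far below the other 3 control arrays at 0.30 to 0.35. The gap to its nearest neighbour was 0.850 of the group's range, above Dixon's critical value for 4 samples. It was 1 of 20 groups of member values looked at in this way, of which chance alone would mark about 1.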

How the results depend on the processing

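Of all genes, 2620 passed (1204 higher, 1416 lower in Fzd8-CRD cells). The count was 613 with median centring, 6131 with array weights, 5504 with slide as a random block, and 1340 to 3093 when 1 array was left out. The scanner's ratio gave 1553 higher and 1216 lower, and the deposited ratios 1534 and 1151. Array weights were fitted to the same 9 arrays. The slide block estimated a correlation within slides of -0.168, and its SEs were smaller (Notch4 0.24, against 0.30 in the main fit). Slides are not shared between the groups, so its higher counts are not read as firmer results. Averaging the closest pair of arrays in each group, an alternative chosen after seeing the data, left 338 genes. Members that passed numbered 4, and 7 with the scanner's ratio, the series table, Cy5 alone or the slide block, 2 with median centring, 1 with the closest pairs averaged, and 2 to 5 with 1 array left out, the 2 being without control replicate 3. Other pathway genes that passed numbered 7, and 2 with median centring or the closest pairs averaged, 13 in Cy5 alone, 12 with array weights, 11 with the slide block, and 4 to 9 with 1 array left out. With the closest pairs averaged the adjusted p was 0.0521 for Notch4, 0.0785 for Mfng and 0.0557 for Maml1. Dll1 passed in 8 of 22 alternatives, Jag1 in 4 and Jag2 in 5.

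Genes whose difference changed sign had not passed. With 1 array left out Notch3 ran from -0.11 (Fzd8-CRD replicate 2) to 0.35, and was -0.041 with the closest pairs averaged. Hes5 was 0.10 with no background correction, 0.51 with the scanner's ratio and the series table, 0.046 in Cy5 alone, and -0.15 to 0.046 with 1 array left out. Hey2 was 0.13 and Nrarp 0.43 with the scanner's ratio and the series table, and Nrarp 0.33 in Cy5 alone. Lfng was -0.043 with the closest pairs averaged and -0.066 (without control replicate 1) to 0.41 with 1 array left out. The cause was not tested. Quantile normalization of mean intensity leaves ratios unchanged by construction. No paired analysis was possible because the labels carry no replicate numbers. Signal near background limits Notch2, Mfng and Dll4.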
